A study of Homo sapiens with 6 samples.

Results

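The ubiquitin C-terminal hydrolase (UCH) family has 4 members in the human genome, UCHL1, UCHL3, UCHL5 and BAP1, and all 4 were among the 17100 genes of the deposited count table. They were taken by gene symbol. UCHL1 was picked because its RNA was among those with the largest increase after guadecitabine in these same libraries, and the other members were taken because they belong to its family. The values of UCHL1 between vehicle and guadecitabine are therefore given as a description without a test. The study sequenced RNA of MDA-MB-231, an established human cell line from a breast adenocarcinoma that lacks hormone receptors. Cells of 3 libraries received vehicle. Cells of the other 3 libraries received 1 µM guadecitabine (SGI-110) for 96 h and were then kept without drug for 24 h. The RNA was from 3 independent experiments, and whether each of them held both groups is not stated. Guadecitabine releases decitabine, which is built into DNA during replication and traps DNA methyltransferases there, so that methylation is lost as cells divide.

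Ubiquitin is a small protein that is attached to other proteins to mark them for degradation by the proteasome or to change their function, and deubiquitinases remove it. The UCH enzymes are cysteine proteases that cut after the C-terminus of ubiquitin. UCHL1 is among the most abundant proteins of neurons, is used as a neuronal and neuroendocrine marker under the name PGP9.5, and is known to be silenced by promoter methylation in several cancers. UCHL3 is its closest relative and also acts on the ubiquitin-like protein NEDD8. UCHL5 is bound to the proteasome through ADRM1 and to the INO80 chromatin remodelling complex through NFRKB. BAP1 is a nuclear tumor suppressor that removes ubiquitin from histone H2A as the catalytic subunit of the PR-DUB complex.

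On the hg19 build, the transcript counted for UCHL1 (NM_004181) lies at chr4:41258898-41270446 on the plus strand, with 1124 bp of counted exon. UCHL3 (NM_001270952) lies at chr13:76123616-76180156 on the plus strand, with 991 bp. UCHL5 (NM_001199261) lies at chr1:192981496-193028523 on the minus strand, with 5105 bp, and BAP1 (NM_004656) at chr3:52435020-52444121 on the minus strand, with 3701 bp. Exons of other genes are annotated over exons of 3 members in GENCODE. A divergent lncRNA, UCHL1-DT, covers 135 bases of UCHL1 exons on the opposite strand, and TROVE2 (RO60 in GENCODE) covers 419 bases of UCHL5 exons on the opposite strand. Of UCHL3 exons, 128 bases are covered by LMO7-AS1 on the opposite strand and 580 bases by an unnamed lncRNA on the same strand. These overlaps are with all annotated exons of each member, 2207 bases for UCHL1, 1890 for UCHL3 and 6661 for UCHL5, which exceed the counted exon. Whether the shared bases lie in counted exon was not checked. Whether strand was used in the counting is not given in the sources used here, so reads over these bases cannot be assigned to one strand.

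The family is defined by the active site, and the coding sequence around the codon of the catalytic cysteine is shown here to compare the members. Each stretch of 30 bases was read from GRCh37, the same assembly as hg19, in coding exon of the GENCODE transcript and in the direction of transcription. The capitals mark the cysteine codon, which is codon 90 of UCHL1, 95 of UCHL3, 88 of UCHL5 and 91 of BAP1.
UCHL1, chr4:41262745-41262774: attgggaattccTGTggcacaatcggactt
UCHL3, chr13:76140918-76140947: atcagcaatgccTGTggaacaattggactg
UCHL5, chr1:192998755-192998784: attaataatgctTGTgctactcaagccata
BAP1, chr3:52442061-52442090: atacccaactctTGTgcaactcatgccttg

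In these 30 bases, UCHL1 and UCHL3 were identical at 23 positions and UCHL5 and BAP1 at 20, whereas UCHL1 shared 15 with UCHL5 and 14 with BAP1. The full coding sequences differ more in size, with 669 bp in UCHL1, 690 bp in UCHL3, 984 bp in UCHL5 and 2187 bp in BAP1. No stretch of 50 bases was shared between the annotated transcripts of any pair of members (0 for each pair).

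Since the drug acts on DNA methylation at CpG sites, the sequence directly before the deposited start of UCHL1 is printed beside that of UCHL3, with each CpG in capitals. Methylation itself was not analysed here. Both sequences are from RefSeq (GRCh38.p14), were found without a difference in GRCh37, and lie upstream of the transcript and outside its exons. They are written in the direction of transcription, on the plus strand, and span 203 bases for UCHL1 and 228 bases for UCHL3.
UCHL1, chr4:41258695-41258897: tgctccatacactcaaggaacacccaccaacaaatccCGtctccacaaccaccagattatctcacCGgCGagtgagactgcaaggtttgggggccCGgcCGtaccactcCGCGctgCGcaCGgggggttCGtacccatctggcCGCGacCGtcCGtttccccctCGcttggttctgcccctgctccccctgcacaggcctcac
UCHL3, chr13:76123388-76123615: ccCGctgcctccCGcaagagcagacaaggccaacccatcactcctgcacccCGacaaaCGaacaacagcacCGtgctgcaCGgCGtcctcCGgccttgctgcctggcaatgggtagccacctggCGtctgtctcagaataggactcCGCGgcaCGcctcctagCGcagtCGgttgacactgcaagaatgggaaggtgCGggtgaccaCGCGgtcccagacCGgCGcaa

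The printed stretch held 15 CpG sites in UCHL1 and 19 in UCHL3. Over the full 250 bases before the RefSeq start, UCHL1 had 20 CpG sites, and 67.9% of the 27305 genes with such a window had fewer. In the same window the RefSeq start of UCHL3 nearest to the deposited one had 23 CpG sites, with 74.6% of genes below it, and that of UCHL5 had 22, with 72.4% below it. The median of all genes was 11. At these nearest starts UCHL1 had no more CpG sites than UCHL3 and UCHL5. Further RefSeq starts had 20 CpG sites in UCHL3, and 20 and 11 in UCHL5. RefSeq promoters were matched for these 3 of the 4 members (UCHL1, UCHL3 and UCHL5).

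The vehicle libraries held 17602570 to 22277442 counts each, and the guadecitabine libraries 8792127 to 21410849, of which replicate 2 was the smallest. Vehicle replicate 3 stood apart, with 20 genes at 0 counts against 2498 and 2517 in the other vehicle libraries. Among 532 genes other than UCHL1 with no more than 1 count in each of the other vehicle libraries and at least 11 in the guadecitabine libraries together, vehicle replicate 3 had a median of 16 counts. Of the markers of the cell line, VIM had at least 32223 counts in each library, while ESR1 and PGR had at most 1 count in every library but vehicle replicate 3, which had 67 and 43. Counts were scaled by edgeR's TMM method to a common total (normalized counts), and levels are given as normalized counts per kb of counted exon. Of the 13322 genes tested, 19.3% were higher and 18.4% were lower after guadecitabine at an adjusted p of 0.05 in edgeR's quasi-likelihood test. These calls numbered 2576 and 2446, and without guadecitabine replicate 3 they numbered 1706 and 1629.

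UCHL1 went from the lowest level in the family to the highest. Its counts were 0, 1 and 15 in vehicle replicates 1, 2 and 3 and 5266, 2023 and 4623 in guadecitabine replicates 1, 2 and 3. Each guadecitabine library lay far above each vehicle library, and within the vehicle group nearly all reads came from replicate 3. The 15 reads in vehicle replicate 3 were 13.3 counts per kb, against a median of 7.10 in the 532 otherwise silent genes, of which 82.3% had fewer counts per kb than UCHL1. The part of that library's general background in these 15 reads was not tested. Vehicle replicates 1 and 2 were below the detection floor, set at 3 counts.

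The level of UCHL1 was 0, 0.938 and 10.3 normalized reads per kb in the vehicle libraries and 3789, 3659 and 4148 in the guadecitabine libraries. The guadecitabine libraries lay close together, with a mean of 3865 ± 253 reads per kb (SD, n = 3), or a coefficient of variation of 6.55%. In vehicle the mean was 3.74 ± 5.69 (SD, n = 3), most of it from replicate 3, so no ratio of means is given. In these bulk libraries, more cells with UCHL1 RNA and more of it per cell cannot be told apart. The fitted log2 fold change was 9.79 (standard error 0.436), the fourth largest (rank 4) of all 13322 genes, and it was 12.75 without vehicle replicate 3. This value depends on the prior count that edgeR adds to near-empty vehicle libraries, and UCHL1 passed the filter on low counts through the guadecitabine libraries. The gene moved from the lowest 7.17% of tested genes in each vehicle library to above at least 96.7% of them in each guadecitabine library, by level per kb.

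UCHL3 was the only one of the other 3 members that passed the test, and it rose. It had 647, 729 and 682 normalized counts in vehicle replicates 1, 2 and 3 and 1076, 917 and 945 after guadecitabine, so that the groups did not overlap. By comparison, 26.6% of all genes tested had the 3 guadecitabine libraries above the 3 vehicle libraries and 25% had them below. The log2 fold change of UCHL3 was 0.52 (standard error 0.109, adjusted p = 0.00563 from edgeR), a 1.43-fold change with a 95% interval of 1.21 to 1.70. The exact permutation test gave p = 0.1 (two-sided), the smallest that 3 against 3 libraries allow. UCHL3 kept its call with each of the 6 libraries left out, at log2 fold changes of 0.44 to 0.56, and 0.51 without vehicle replicate 3.

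UCHL5 had 961, 928 and 901 normalized counts in the vehicle libraries and 1244, 915 and 922 after guadecitabine. Guadecitabine replicate 1 lay above the vehicle range, while replicates 2 and 3 lay within it. The log2 fold change of 0.15 (standard error 0.136) did not pass the test (edgeR, adjusted p = 0.428), and the 95% interval ran from 0.895-fold to 1.37-fold. Without guadecitabine replicate 1 the value was -0.018. TROVE2, which shares exon bases with UCHL5 on the opposite strand, rose from 256 ± 27.2 to 557 ± 122 normalized counts (SD, n = 3 in each group; edgeR, adjusted p = 0.000819). TROVE2 had 697, 476 and 497 normalized counts in guadecitabine replicates 1, 2 and 3. Other genes, such as OGT at 1797, 1201 and 1235, were also highest in replicate 1, while others, such as ADRM1, were not. The part of TROVE2 reads in the UCHL5 counts was not tested.

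BAP1 had 4357, 4157 and 3421 normalized counts in vehicle and 2933, 3529 and 3303 after guadecitabine. The groups overlapped, since vehicle replicate 3 was below guadecitabine replicate 2. The log2 fold change was -0.29 (standard error 0.124, adjusted p = 0.0956 from edgeR), with an unadjusted 95% interval of 0.673-fold to 0.993-fold, and it did not pass the threshold. Without vehicle replicate 3 BAP1 was lower at a log2 fold change of -0.39 (edgeR, adjusted p = 0.0234). The call on BAP1 therefore rests on whether that library is kept.

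**Figure D1:**
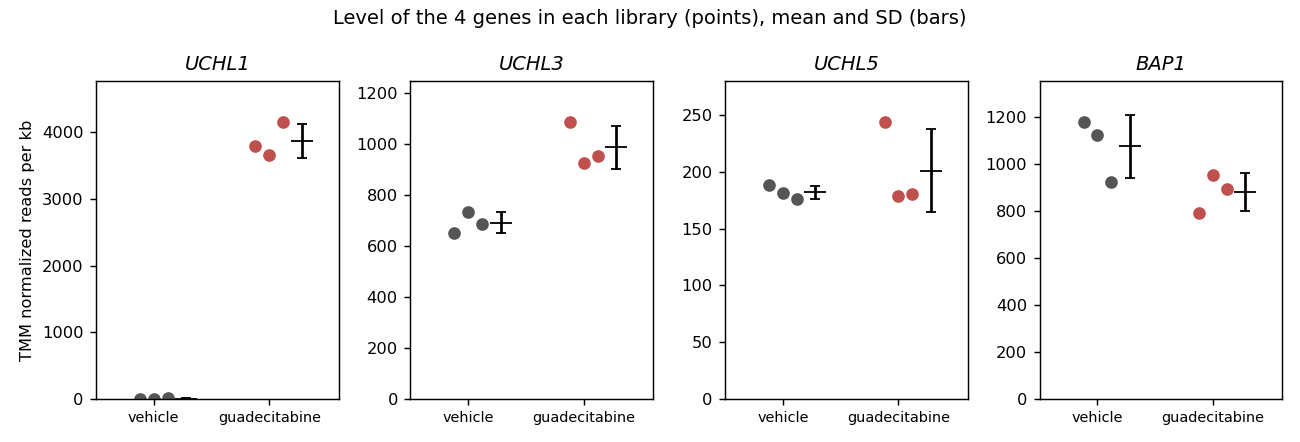
TMM normalized reads per kb of counted exon for UCHL1, UCHL3, UCHL5 and BAP1 in each of 3 vehicle (grey) and 3 guadecitabine (red) libraries, with the mean and SD as bars, each panel on its own linear axis from 0. UCHL1 is near 0 in vehicle and between 3659 and 4148 after guadecitabine, UCHL3 is separated between groups, and UCHL5 and BAP1 overlap.

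Per kb of exon, the order of the levels in vehicle was BAP1 with 1075 ± 133 reads per kb, UCHL3 with 692 ± 41.5, UCHL5 with 182 ± 5.86 and UCHL1 with 3.74 ± 5.69 (SD, n = 3), and no neighbours in that order overlapped. After guadecitabine UCHL1 came first, followed by UCHL3 with 988 ± 85.5, BAP1 with 880 ± 81.3 and UCHL5 with 201 ± 36.8 (SD, n = 3). UCHL3 and BAP1, with ranges of 925 to 1085 and 793 to 954, were then not separated. The summed level of the 4 genes was 1953 ± 134 reads per kb in vehicle and 5934 ± 229 after guadecitabine (SD, n = 3). Without UCHL1 the sums were 1949 ± 139 and 2069 ± 48.5, which differed by less than the spread of the vehicle libraries. UCHL1 made up 0%, 0.0460% and 0.572% of the summed level in vehicle replicates 1, 2 and 3 and 64.1%, 64.0% and 67.2% in the guadecitabine replicates.

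**Figure D2:**
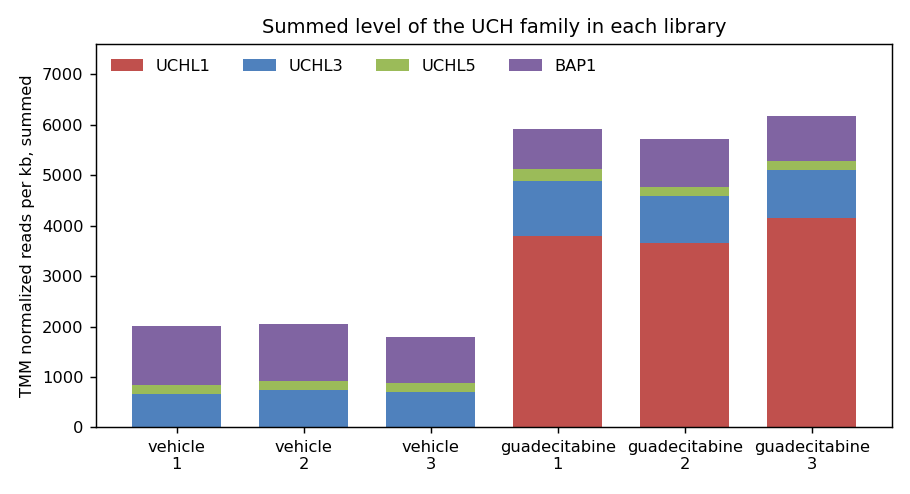
Summed TMM normalized reads per kb of the 4 UCH genes in each library, as stacked bars coloured by gene. The sum is between 1799 and 2041 in vehicle and between 5717 and 6174 after guadecitabine, where UCHL1 makes up 64.0% to 67.2% of it.

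The level of UCHL1 was then set beside that of all deubiquitinase genes, a list of 90 genes of the table with the UCH, USP, OTU, Josephin, JAMM and MINDY families and their inactive relatives. By mean reads per kb, UCHL1 ranked 87 of 90 in vehicle and 1 after guadecitabine. Its closest neighbours after guadecitabine were EIF3H with 3691 ± 542 reads per kb and COPS6 with 3376 ± 192 (SD, n = 3), relatives of the JAMM proteases that lack activity of their own. EIF3H was not separated from UCHL1, and guadecitabine replicate 1 ranked UCHL1 at 2. Of enzymes with known activity, OTUB1 had 1792 ± 193 reads per kb after guadecitabine and the proteasome subunit PSMD14 1748 ± 257 (SD, n = 3). These levels are of RNA, and protein was not analysed here.

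Other deubiquitinases moved in both directions. Since UCHL1 was picked for its large rise, the size of its change is not compared with theirs. Of 81 tested genes outside the UCH family and the proteasome, 15 rose, 9 fell and 57 did not pass the test (edgeR, adjusted p of 0.05). These shares, 18.5% and 11.1%, compare with 19.3% and 18.4% over all genes, and the median log2 fold change was 0.12 against 0.02. Without vehicle replicate 3, 13 rose, of which 11 were also among the 15, and 11 fell. Without vehicle replicate 2, only 8 rose.

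In the OTU family 7 of 16 tested genes rose (43.8% against 19.3% of all genes) and 1 fell. With 1 library left out, 4 rose without vehicle replicate 1, 3 without vehicle replicate 2 and 5 without vehicle replicate 3. TNFAIP3, which encodes the NF-kB inhibitor A20, had 135, 134 and 273 counts in vehicle and 1427, 617 and 1112 after guadecitabine, a log2 fold change of 2.87 (standard error 0.181, edgeR adjusted p = 5.73e-06). All its guadecitabine libraries lay above the vehicle libraries. OTUD6A, named after its value was seen, had 0, 0 and 2 counts in vehicle and 27, 7 and 12 after guadecitabine, and its call was lost without guadecitabine replicate 1. OTUD4 rose by a log2 fold change of 0.53, and OTUD5, a regulator of interferon signalling, fell by 0.50 on the log2 scale.

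In the USP family 6 of 48 tested genes rose and 6 fell, or 12.5% in each direction against 19.3% and 18.4% of all genes, and with 1 library left out 4 to 9 rose and 4 to 8 fell. CYLD, a further NF-kB inhibitor, rose from 415 ± 6.91 to 1005 ± 205 normalized counts (SD, n = 3; edgeR, adjusted p = 0.000189) and USP31 from 132 ± 26.2 to 344 ± 34.4. PAN2, a deadenylase subunit that carries an inactive USP fold, fell from 281 ± 54.2 to 59.5 ± 13.3 normalized counts, a log2 fold change of -2.20. USP30, an enzyme of the mitochondrial outer membrane, had a log2 fold change of -0.99 (edgeR, adjusted p = 0.00150). In the smaller families JOSD1 rose by 0.67 on the log2 scale, STAMBPL1 by 0.46, the splicing factor PRPF8 fell by 0.60 and FAM63A, the enzyme MINDY1, fell by 1.11. The call of STAMBPL1 was lost with any of 4 libraries left out (vehicle replicates 1 and 2 and guadecitabine replicates 1 and 3).

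The 26S proteasome, to which UCHL5 binds, showed a small rise across many subunits. Of 44 tested genes for the 19S and 20S particles, the inducible subunits and their activators, 24 rose and 0 fell, or 54.5% against 19.3% of all genes, with a median log2 fold change of 0.38 against 0.02. With DESeq2 28 rose and 0 fell, and in the edgeR test without guadecitabine replicate 3 12 rose. Without vehicle replicate 3, 17 of the 24 rose and 2 fell, PSMB10 and SHFM1, and PSMB10 also fell without guadecitabine replicate 2. In the 19S particle 12 of 22 genes rose, with PSMD13 at a log2 fold change of 0.80 and the ATPase PSMC4 at 0.79. In the 20S core 7 of 14 rose, among them PSMB7 at 0.70 and PSMB3 at 0.68. Among inducible subunits and activators 5 of 8 rose, with PSME4 at 0.92 and PSME2 at 0.74. Without guadecitabine replicate 3, 5 genes of the 19S particle, 4 of the 20S core and 3 of the inducible subunits and activators rose. The 19S count was 7 without vehicle replicate 1 or 3, and the 20S count was 4 without vehicle replicate 2.

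Besides UCHL5, the proteasome carries the deubiquitinases PSMD14 and USP14. PSMD14 rose by 0.62 on the log2 scale (edgeR, adjusted p = 0.00835) and USP14 by 0.40 (edgeR, adjusted p = 0.0231), while UCHL5 did not pass the test. The call of USP14 was lost without vehicle replicate 2 or 3 or without guadecitabine replicate 1 or 3. Whether the change of UCHL5 differed from theirs was not tested. ADRM1, the proteasome receptor of UCHL5, had 7923 ± 1344 and 9585 ± 1426 normalized counts (SD, n = 3), which overlapped (edgeR, adjusted p = 0.186).

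Among the 14 tested INO80 genes, 2 rose and 1 fell, or 14.3% and 7.14% against 19.3% and 18.4% of all genes. NFRKB, the subunit that holds UCHL5, had a log2 fold change of 0.07 (edgeR, adjusted p = 0.646). INO80C rose by 0.59 and ACTR5 by 0.48 on the log2 scale, and MCRS1 fell by 0.33. Without vehicle replicate 3, 4 genes of the list rose and 3 fell. None of these 3 named calls held in the absence of guadecitabine replicate 3, the call of INO80C was also lost without vehicle replicate 2 and that of ACTR5 without vehicle replicate 1. The call of MCRS1 was lost with any library but vehicle replicate 3 left out, and also when counts were scaled by library totals or by the size factors of DESeq2.

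Of 10 tested partners of BAP1, 1 rose and 3 fell, or 10% and 30% against 19.3% and 18.4% of all genes, and 0 to 2 fell with 1 library left out, whichever it was. The log2 fold change was -0.07 for ASXL1 and 0.09 for ASXL2, the subunits that activate BAP1, and 0.05 for FOXK2 and -0.13 for FOXK1, which recruit it to DNA, with adjusted p-values of 0.372 to 0.682 (edgeR). ASXL3 had 0 normalized counts in each guadecitabine library and 7.46 ± 12.9 in vehicle (SD, n = 3), all from replicate 3. OGT, which adds sugar to nuclear proteins, had 1425 ± 202 and 1411 ± 335 normalized counts (SD, n = 3), and its direction changed with the scaling (a log2 fold change of -0.00936 with TMM and 0.0300 with library totals). HCFC1, the major binding partner of BAP1, fell by 0.31 on the log2 scale (edgeR, adjusted p = 0.0415), a call that was lost with any library but vehicle replicate 3 left out. KDM1B, a histone demethylase, rose from 316 ± 33.2 to 840 ± 148 normalized counts, a log2 fold change of 1.41 (edgeR, adjusted p = 0.000119). MBD5 fell by 0.87 and MBD6 by 0.36. Without guadecitabine replicate 3 or vehicle replicate 2 neither passed, and MBD6 was also lost without vehicle replicate 1 or 3.

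The substrates of the family were also measured. UCHL1 and UCHL3 can release ubiquitin from its precursors, and UCHL3 also NEDD8. The log2 fold change was 0.17 for the polyubiquitin gene UBB, -0.0025 for RPS27A, which encodes ubiquitin fused to a ribosomal protein, and 0.25 for NEDD8, with adjusted p-values of 0.0848 to 0.991 (edgeR). None of these 3 genes passed the test, but NEDD8 passed without guadecitabine replicate 1 and UBB without guadecitabine replicate 2. Of 6 activating and conjugating enzymes, 2 rose and 0 fell, or 33.3% and 0% against 19.3% and 18.4% of all genes. UBE2F rose by 0.65 and UBE2M by 0.43 on the log2 scale, both enzymes that carry NEDD8. The call of UBE2M was lost without guadecitabine replicate 3. The genes for NEDD8 activation, UBA3 at 0.15 and NAE1 at -0.11, named after their values were seen, did not pass (edgeR, adjusted p = 0.461 and 0.521).

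**Figure D3:**
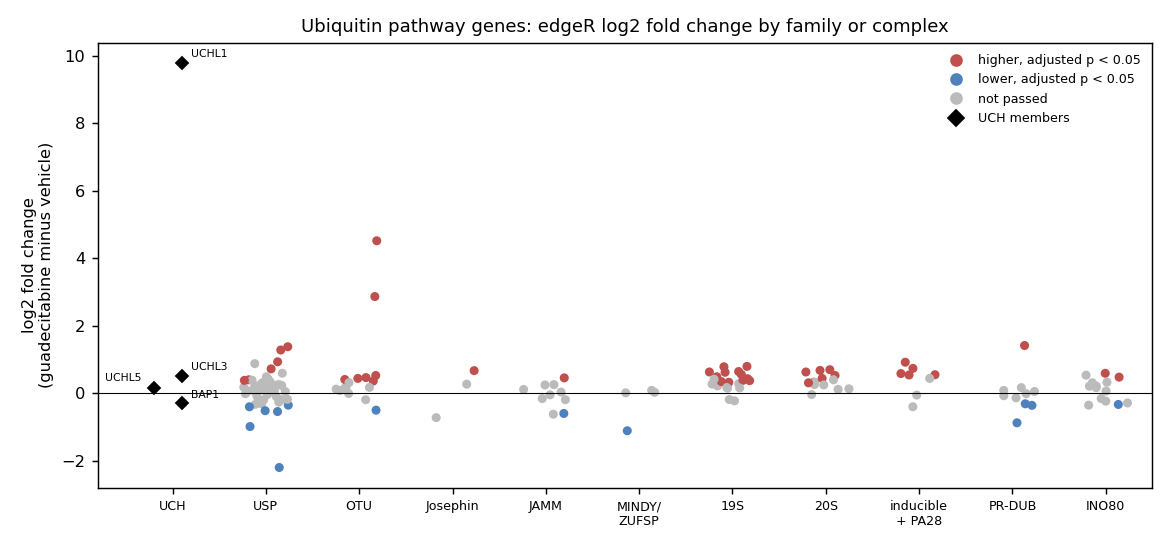
Log2 fold change (guadecitabine minus vehicle, edgeR) of each tested gene by family or complex, red for higher and blue for lower at an adjusted p under 0.05, grey for not passed, and black diamonds for the UCH members. UCHL1, picked for its large rise, is at 9.79, and its size is not compared with that of the other genes. OTUD6A, with 0, 0 and 2 counts in vehicle, is at 4.52. The proteasome groups hold 24 red and 0 blue points.

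UCHL1 marks neurons and neuroendocrine cells, and other markers of these cells moved in both directions. Among 26 marker genes listed, 12 passed the filter, of which 4 were higher and 3 lower, or 33.3% and 25% against 19.3% and 18.4% of all genes. Without guadecitabine replicate 1 or 3, 2 were higher, and without vehicle replicate 3, 5 were higher and 3 lower. SCG5, a secretory granule chaperone, rose from 17.6 ± 6.19 to 251 ± 13.4 normalized counts (SD, n = 3; edgeR, adjusted p = 6.94e-06). The neurofilament genes INA and NEFH and the synaptic gene SYT1, named after their values were seen, were the others that rose, at log2 fold changes of 4.28, 2.70 and 0.95. INA had 1, 0 and 33 counts in vehicle and NEFH 3, 3 and 35, so both passed the filter through the guadecitabine libraries, and neither was tested where at least 10 counts were required in each library. Without vehicle replicate 3 their log2 fold changes were 8.25 and 4.62. The calls of NEFH and SYT1 were lost without guadecitabine replicate 1 or 3, and that of SYT1 also without vehicle replicate 1 or 2. CPE fell by 1.00 on the log2 scale, ENO2 by 0.40 and MAP2, also named afterwards, by 2.43. The call of ENO2 was lost without vehicle replicate 1 or 2 or guadecitabine replicate 1 or 3. CHGA, INSM1 and SYP were also named afterwards. CHGA and INSM1 had at most 4 counts in each guadecitabine library. SYP had 32, 22 and 86 counts in the vehicle libraries and 58, 28 and 53 after guadecitabine. It did not pass the test (edgeR, adjusted p = 0.540). Summed over the list, normalized counts were 9663 to 10467 in vehicle and 8701 to 9877 after guadecitabine, most of them from ENO2 and TUBB3. Without these genes the sums were 726, 695 and 1282 in vehicle replicates 1, 2 and 3 and 1144, 955 and 1044 in the guadecitabine replicates, so that only vehicle replicate 3 lay above the guadecitabine libraries.

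Genes beside UCHL1 on chromosome 4 moved in both directions. Since UCHL1 was picked for its large rise, the size of their changes is not compared with its own. The nearest genes of the table are APBB2, which ends 42.3 kb before UCHL1, and LIMCH1, which begins 91.2 kb after it, and both were lower after guadecitabine. APBB2 went from 1382 ± 136 to 1010 ± 62.1 normalized counts (edgeR, adjusted p = 0.0126) and LIMCH1, a regulator of actin and myosin, from 1921 ± 104 to 1178 ± 205 (edgeR, adjusted p = 0.00395; SD, n = 3). The call of APBB2 was lost without vehicle replicate 1 or guadecitabine replicate 3.

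Of the 7 tested genes other than UCHL1 within 1 Mb, 4 fell, 2 rose and 1 did not pass, where 18.4% of all genes fell and 19.3% rose. RBM47, an RNA-binding protein gene, and NSUN7, which end 627 and 447 kb before UCHL1, fell by 0.51 and 0.88 on the log2 scale. The call of NSUN7 was lost with any library but vehicle replicate 3 left out. TMEM33 rose by 0.61, and SLC30A9, a zinc transporter gene, was at -0.32 (edgeR, adjusted p = 0.149), which passed without guadecitabine replicate 1. DCAF4L1, 713 kb after UCHL1, rose from 10.0 ± 6.08 to 238 ± 78.7 normalized counts (SD, n = 3). Its log2 fold change was 4.51 (edgeR, adjusted p = 4.34e-05), or 5.19 without vehicle replicate 3. DCAF4L1 had 6, 7 and 22 counts in vehicle, passed the filter through the guadecitabine libraries, and was not tested where at least 10 counts were required in each library. CHRNA9 and BEND4 did not pass the filter on low counts.

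**Figure D4:**
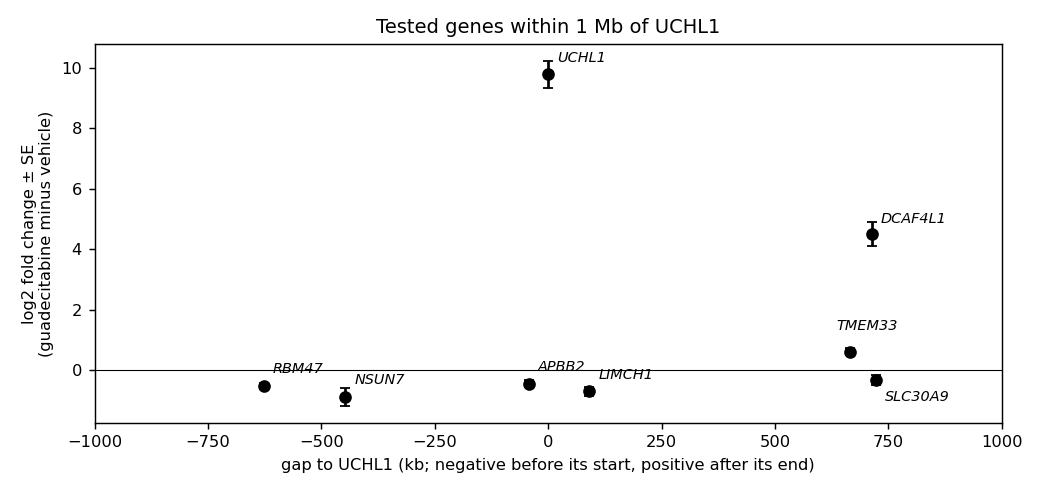
Log2 fold change with its standard error (guadecitabine minus vehicle, edgeR) of the tested genes within 1 Mb of UCHL1, against the gap in kb to the ends of UCHL1. UCHL1, picked for its large rise, is at 9.79, and its size is not compared with that of the other genes. APBB2 is at -0.45 and LIMCH1 at -0.70, and DCAF4L1 at 4.51 lies 713 kb away.

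The genes whose pattern over the 6 libraries was most like that of UCHL1, by Pearson's correlation of log2 CPM, were DMRTB1, PLA2G4C, FAM101B, RNF44 and ADAP2. Their correlations with UCHL1 were all 0.999 or above, but they differed in size, from a log2 fold change of 6.41 for DMRTB1 to 0.69 for RNF44. The measure mostly reflects the step between the groups, and 252 of the 13321 other genes had a correlation over 0.99.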

How the data were processed

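RNA of 6 MDA-MB-231 libraries (3 vehicle, 3 guadecitabine) was measured by RNA-seq. The authors aligned reads to hg19 with STAR 2.3.1z, counted exon reads with iRNA-seq and deposited whole-number counts per transcript, which were used here. The deposited counted length served to express levels per kb. The authors also deposited rlog values on a log2 scale and a mean signal per gene, which were not used. Their own comparison from DESeq2 (a log2 fold change with its error, a test score and p-values) was deposited too and was not used.

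Groups came from the labels. In R 4.3.3, edgeR 4.0.16 was run with TMM scaling, filterByExpr (minimum count 10) and the quasi-likelihood test, with Benjamini-Hochberg adjustment over 13322 genes and a threshold of 0.05. Normalized counts were scaled to a total of 17911210. The standard error is the log2 fold change divided by the square root of F. Exact permutation tests used scipy 1.17.1. The fit was also run on simulated counts of 13122 genes, where it called 147 of 195 changed genes and made 10 false calls. The simulation did not model the low counts that vehicle replicate 3 had in otherwise silent genes. Correlations used log2 CPM with a pseudocount of 0.5. Total counts were 8792127 to 22277442 per library, and p-values and intervals measure the spread between libraries only. Alternatives were DESeq2 1.42.0, other scalings, a replicate block, leaving out each library, and the filter on low counts either dropped or set to 10 in each of the libraries.

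The members and the gene lists were chosen with earlier results of these data known. Named genes were the members and their direct partners, the ubiquitin and NEDD8 precursors, USP14 and PSMD14, all genes within 1 Mb of UCHL1, the 5 genes most correlated with it, and in each list the 2 called genes with the largest change in each direction among those with a mean of at least 100 normalized counts. Genes outside this rule are marked as named after their values were seen, except TROVE2, cell line markers, OTUB1, EIF3H, COPS6, PSMB10 and SHFM1, which were also chosen after their values were seen. Promoter sequences are from RefSeq, and gene overlaps and coding exons from GENCODE on GRCh37. Some genes that this rule names are not reported here.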

Additional observations from a re-analysis of the deposited data

How the results depend on the processing

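UCHL3 kept its call under each of the alternatives run. With 1 library left out, the log2 fold change of UCHL1 was 9.25 to 12.75 (the latter without vehicle replicate 3), that of BAP1 -0.39 to -0.22 (passing the test without vehicle replicate 3) and that of UCHL5 -0.018 to 0.22 (below 0 without guadecitabine replicate 1). UCHL1 was not tested when at least 10 counts were required in every sample. With 1 library left out, 8 to 18 other deubiquitinases were higher, 12 to 22 proteasome genes were higher and 0 to 2 lower, and over all genes 1706 to 3002 were higher and 1629 to 2575 lower. OGT and RPS27A, which did not pass the test, changed sign. OGT was at 0.0300 with library totals and 0.00662 without a filter, and RPS27A at 0.0366 with library totals, 0.0102 without a filter, 0.00223 with at least 10 counts in every sample and 0.000365 with the replicate block. With 1 library left out OGT was at -0.22 to 0.10 and RPS27A at -0.11 to 0.089. Same-numbered libraries did not deviate together (correlations of -0.0918 to 0.0938), so the numbers were not taken as pairs. With the replicate block 2424 genes were higher and 2230 lower, and the log2 fold changes were 9.84 for UCHL1, 0.51 for UCHL3, 0.13 for UCHL5 and -0.29 for BAP1. The block ended the calls of HCFC1, MCRS1 and NSUN7 among the named genes, and dropping the filter on low counts ended those of USP14, ENO2, HCFC1, MBD6, MCRS1 and OTUD6A. The cause of these changes was not tested. Depth limits the vehicle level of UCHL1, at 0, 1 and 15 counts.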
